A study of Mus musculus with 7 samples.

Results

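The mitosis and spindle genes were 39 genes taken by symbol from a table of 24346 genes: the proliferation marker Mki67, the topoisomerase Top2a, CDK1 and its cyclins, and the kinases, checkpoint proteins, kinetochore proteins, motors and ligases that carry a cell through division. Their RNA was measured in primary neurospheres, floating cultures that grow from stem and progenitor cells, made from the hippocampus of single adult mice and cultured for 8 days. The 7 libraries were named for their mice, with WT_215, WT_116, WT_213 and WT_220 as the 4 controls. The study's text gives fewer control mice than were deposited and does not name them, so all were kept. KO_117, KO_214 and KO_218 were the 3 libraries of Med23 CKO mice. The mice were all on the C57/BL6 strain and, by the labels, 2 months old, and received tamoxifen at 200 mg/kg a day for 5 days. For cultures the study's methods place the tamoxifen at 1 month of age. Med23 CKO mice carried Med23 alleles with loxP sites around exons 5 to 7 and Nestin-CreER, a tamoxifen-inducible Cre driven by Nestin regulatory sequence. Littermate controls, labelled wild type, received the same tamoxifen and, by the study's methods, could also carry floxed Med23 alleles. The comparison asked how loss of Med23, a subunit of the Mediator complex that links transcription factors to RNA polymerase II, changes gene expression in hippocampal neural stem cells.

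Values are FPKM, fragments per kilobase of transcript scaled to the mapped fragments of each library, so levels of different genes are per length. Med23 itself was at 11.4, 10.3, 12.9 and 10.1 FPKM in the 4 controls and at 9.97, 9.27 and 8.12 FPKM in the 3 Med23 CKO libraries, in the order named above, which is kept throughout. The groups did not overlap, with Med23 CKO below control. This was also the case for 1.53% of the 14151 genes tested, and 0.784% were separated the other way. The log2 fold change of Med23, Med23 CKO minus control, was -0.26 (SE 0.18, adjusted p = 1 in limma, exact permutation p = 0.0571, two-sided). The FPKM of a whole gene also counts its undeleted exons, and their part in this level was not tested. The study reported the deletion in primary neurospheres from qRT-PCR of the Med23 transcript. The stem cell markers Sox2 and Nes were at 69.4 to 194 and at 61.1 to 240 FPKM. Markers of other cell types were present too, among them Mbp of myelinating oligodendrocytes at 66.5 to 2234 FPKM.

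Cells build up the RNA of these genes late in the cell cycle and lose it when they divide or stop dividing, so in a mixed culture the genes serve as a readout of dividing cells. Their promoters are held silent in resting cells and opened in dividing cells by MuvB complexes, first with p130 and E2F proteins and later with B-MYB and FOXM1. These complexes contact a short element called the CHR, usually close to CCAAT boxes that bind NF-Y. In the adult hippocampus, Mki67 protein is the usual marker of dividing precursors in the subgranular zone. In bulk RNA, fewer cells of a type and less RNA per cell cannot be told apart.

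Promoters of the genes carried these letters more often than promoters at large. RefSeq promoters (build GRCm38.p6), from 250 bases before to 50 bases after the start, matched 32 of the 39 genes, and Aurkb, Ccna2, Foxm1, Incenp, Kif20a, Spc24 and Tpx2 had no entry. The CHR core TTTGAA, searched on both strands, was in 23 of the 32 promoters (71.9%) against 20.2% of all 27025 promoters. CCAAT, on either strand, was also in 23 of 32 against 41.1%, and both were in 20 of 32 (62.5%) against 7.97%. Counting the related core TTCGAA as well gave 24 of 32 against 21.7%. Within the 100 bases before the start, TTTGAA was in 8 of 32 (25.0%) against 6.76% and CCAAT in 21 of 32 (65.6%) against 21.6%. The 6 members with both motifs in the same stretch of the 150 bases before the start, outside annotated exons, are shown as examples of the arrangement. They are the promoter stretches of Ect2 at chr3:27153879-27154025 (minus strand), Cdc20 at chr4:118437353-118437493 (minus strand), Mki67 at chr7:135716380-135716529 (minus strand), Cdk1 at chr10:69352939-69353062 (minus strand), Top2a at chr11:99024190-99024339 (minus strand), Kif11 at chr19:37376232-37376381 (plus strand). Each is written 5′ to 3′ on the gene's strand, with TTTGAA (or TTCAAA on the other strand) and CCAAT (or ATTGG on the other strand) in capitals.
Ect2: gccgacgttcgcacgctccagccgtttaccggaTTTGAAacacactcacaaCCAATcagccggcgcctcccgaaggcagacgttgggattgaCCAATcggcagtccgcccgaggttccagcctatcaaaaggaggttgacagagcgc
Cdc20: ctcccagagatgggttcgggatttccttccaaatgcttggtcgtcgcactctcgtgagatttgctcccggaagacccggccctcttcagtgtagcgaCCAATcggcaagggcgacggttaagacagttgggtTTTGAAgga
Mki67: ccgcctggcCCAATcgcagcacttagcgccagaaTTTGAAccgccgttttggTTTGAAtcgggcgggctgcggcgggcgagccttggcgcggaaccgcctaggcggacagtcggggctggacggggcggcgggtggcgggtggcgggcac
Cdk1: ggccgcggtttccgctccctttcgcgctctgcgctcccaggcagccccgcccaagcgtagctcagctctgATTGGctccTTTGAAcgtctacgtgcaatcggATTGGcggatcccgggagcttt
Top2a: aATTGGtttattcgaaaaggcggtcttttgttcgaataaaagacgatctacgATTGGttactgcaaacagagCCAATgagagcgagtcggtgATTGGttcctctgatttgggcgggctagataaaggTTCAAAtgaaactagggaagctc
Kif11: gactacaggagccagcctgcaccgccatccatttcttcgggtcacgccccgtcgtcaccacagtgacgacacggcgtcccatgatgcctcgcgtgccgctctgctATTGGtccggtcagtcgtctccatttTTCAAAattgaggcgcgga
Counted from the first base of one motif to the first base of the other, the nearest pair lay between 9 bases apart in Cdk1 and 35 bases apart in Cdc20 and Top2a, with 25 in Mki67, 26 in Kif11 and 18 in Ect2. Mki67 had 2 CHR cores and Top2a had 4 CCAAT boxes. A match describes the letters of the window and is not a measured binding site.

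The genes differed far more between single mice than between the groups. Of the 39 genes, 37 had their highest value in KO_117 and 38 had their lowest value in KO_214, both Med23 CKO libraries. Both held together for 37 genes, against 9.91% of the genes tested. KO_117 was 3.72-fold (Spc25) to 24.9-fold (Kif2c) above KO_214, with a median of 14.1-fold over the 38 genes other than Pttg1, which ran the other way and was set apart after its values were seen. The 4 controls also differed from each other, by 1.88-fold (Spc25) to 7.83-fold (Plk1) between the highest and the lowest control, with a median of 4.25-fold over the same 38 genes. KO_218 lay within the range of the controls for 37 of the 38. The SD of log2(FPKM + 1) within groups had a median of 1.33 over the 39 genes, against 0.378 over all genes tested. The median of 1.33 was larger than the SD of 96.9% of genes tested, which were not matched to the members for level. Taken as the sum of the 39 FPKM values, the genes made up 0.473% of all FPKM in KO_117 and 0.0488% in KO_214.

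**Figure D1:**
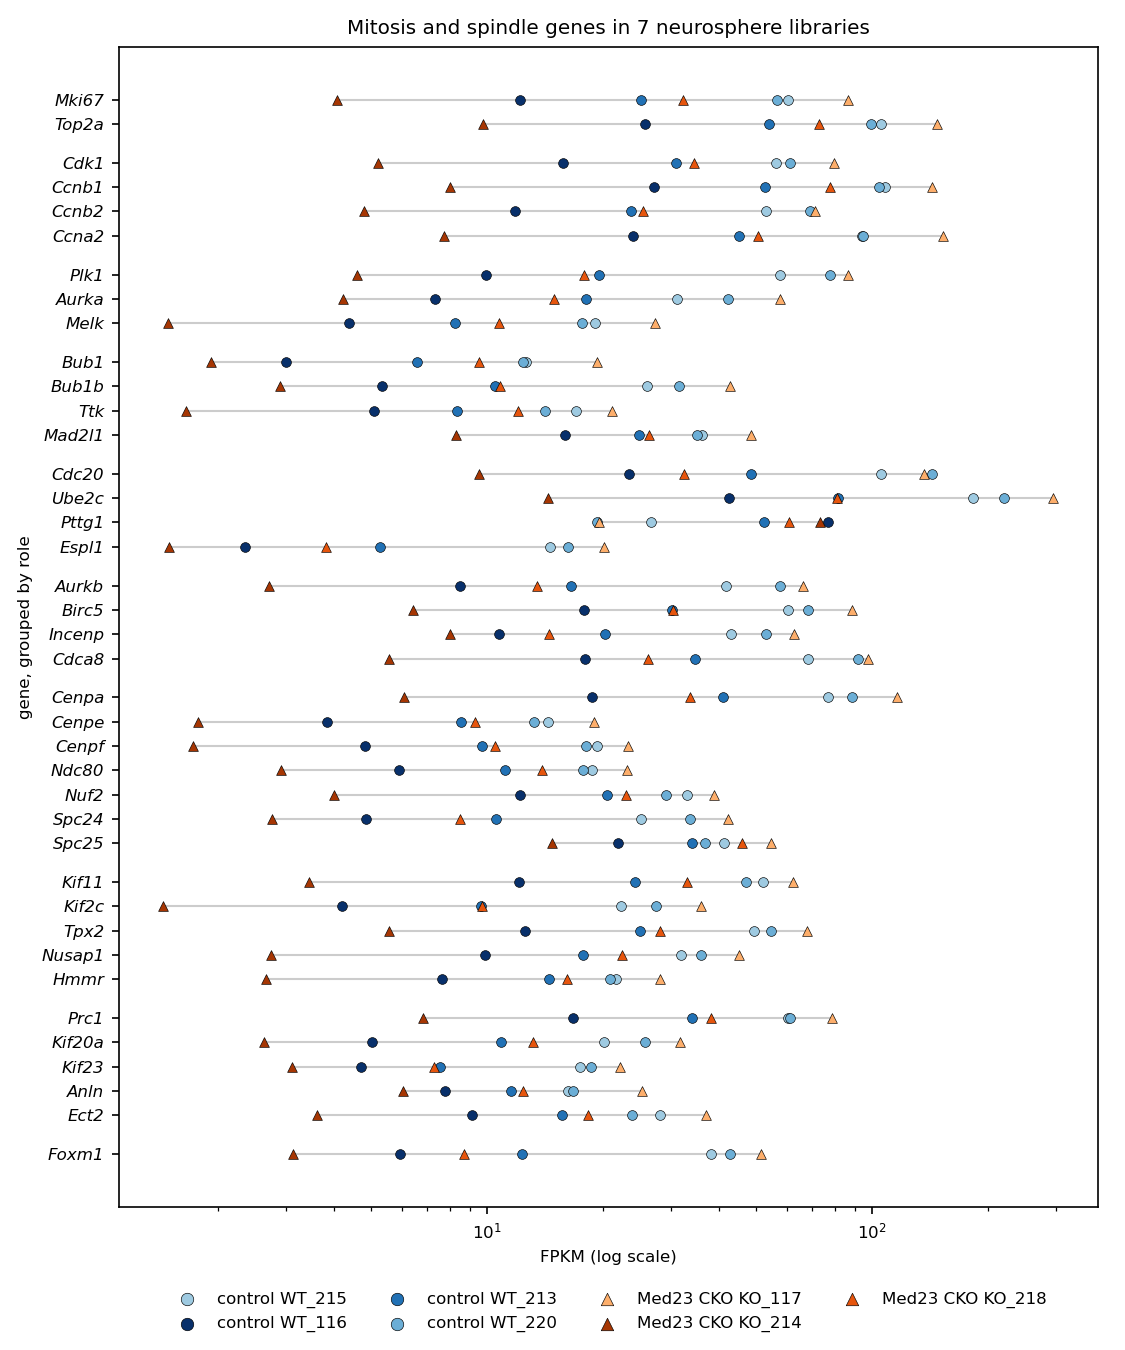
FPKM on a log axis (horizontal) of each of the 39 genes (vertical, grouped by role), with circles for the 4 control libraries and triangles for the 3 Med23 CKO libraries, and grey lines from the lowest to the highest value. In 37 rows KO_117 is the rightmost point and in 38 rows KO_214 is the leftmost, while Pttg1 runs the other way.

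The order of the libraries was nearly the same for gene after gene. Ranked by the mean of the other members, the libraries ran KO_117, WT_220, WT_215, KO_218, WT_213, WT_116 and KO_214. Of the 21 pairs of libraries, each of the 38 genes other than Pttg1 ordered at least 18 in the same way as the mean of the other members, and 11 genes ordered all 21. These values share the same 7 libraries and their scaling, so the genes are not independent of each other. The share of all genes tested with such an order was not counted, so the order is not shown to be particular to these genes.

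CDK1 is the kinase that drives entry into mitosis. In the controls WT_215, WT_116, WT_213 and WT_220, Cdk1 was at 56.2, 15.7, 30.9 and 61.3 FPKM, and in KO_117, KO_214 and KO_218 at 79.6, 5.21 and 34.4 FPKM. Its group values overlapped across the whole control range. Ccnb1, the cyclin that activates CDK1 at mitotic entry, was at 108, 27.1, 52.7 and 104 FPKM in the controls and at 143, 8.02 and 77.7 FPKM in Med23 CKO, in the same library order. Again both extremes were Med23 CKO libraries, with KO_218 between the middle controls. Ccnb2, a second B-type cyclin, ran from 4.79 to 71.1 FPKM, and Ccna2, the A-type cyclin of S phase and mitotic entry, from 7.75 to 153 FPKM. Ccnb1 has near-identical pseudogenes (at least 95% identity over 200 bases or more), and the exons of Ccna2 overlap those of Exosc9 on the other strand, so their levels are less certain. The 4 genes had a median log2 fold change of -0.49, and none passed the test.

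Mki67 and Top2a mark dividing cells, the first as a coat protein of mitotic chromosomes and the second as the enzyme that untangles sister DNA. Mki67 was at 60.6, 12.2, 25.1 and 56.6 FPKM in the controls and at 86.5, 4.08 and 32.3 FPKM in Med23 CKO. Top2a, whose promoter stretch above holds 4 CCAAT boxes, was at 105, 25.6, 53.9 and 99.3 FPKM in the controls and at 147, 9.74 and 72.6 FPKM in Med23 CKO. For both genes the Med23 CKO libraries held the highest and the lowest value, and the group means were close, at 38.6 ± 23.7 FPKM (SD, n = 4) in controls and 40.9 ± 41.9 FPKM (SD, n = 3) in Med23 CKO for Mki67. On the log2 scale, where the low value of KO_214 weighs more, the difference for Mki67 was -0.44. Mki67 has a pseudogene near-identical over 216 bases only, of a transcript of 10061 bases.

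Plk1, a kinase of centrosome maturation and mitotic exit, had the widest spread among controls. It was at 57.7, 9.94, 19.5 and 77.8 FPKM in the controls and at 86.3, 4.60 and 17.8 FPKM in Med23 CKO. Its controls alone thus differed 7.83-fold. Aurka, the kinase of centrosomes and spindle poles, ran from 4.23 FPKM in KO_214 to 57.8 FPKM in KO_117. Melk, a kinase of dividing progenitors, ran from 1.48 to 27.3 FPKM between the same libraries. Their log2 fold changes were -0.61 for Plk1, -0.35 for Aurka and -0.32 for Melk, each smaller than its SE.

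The spindle checkpoint holds anaphase until every chromosome is attached. Bub1, a kinase at kinetochores, was at 12.6, 3.01, 6.57 and 12.4 FPKM in the controls and at 19.2, 1.92 and 9.52 FPKM in Med23 CKO. For Bub1 the log2 fold change was -0.02, with a 95% confidence interval from -1.67 to 1.64. Bub1b, which inhibits the anaphase promoting complex, ran from 2.89 to 42.9 FPKM. Ttk, the kinase that starts checkpoint signalling, ran from 1.65 to 21.1 FPKM, and Mad2l1, which binds CDC20, from 8.31 to 48.4 FPKM. Mad2l1 had one of the narrower spreads, 5.83-fold between KO_117 and KO_214. A pseudogene is near-identical to 454 of the 7557 bases of its transcript.

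The anaphase promoting complex and its targets held both the most negative and the most positive log2 fold change of the 39 genes. Cdc20, the activator that turns the complex on at anaphase, was at 106, 23.3, 48.5 and 143 FPKM in the controls and at 136, 9.52 and 32.5 FPKM in Med23 CKO. It was the one gene highest in a control, WT_220, apart from Pttg1. Its log2 fold change was -0.85 (SE 0.93, adjusted p = 1 in limma), and the interval from -3.02 to 1.32 included 0. Ube2c, the ubiquitin-conjugating enzyme of the complex, had the highest level of the 39 genes in controls, at 132 FPKM on average. It was at 183, 42.5, 81.3 and 220 FPKM in the controls and at 295, 14.4 and 81.0 FPKM in Med23 CKO, where KO_218 was level with WT_213. Espl1, the separase that cuts cohesin, ran from 1.49 to 20.1 FPKM. Cdc20 shares exonic bases with Elovl1 and Ube2c with Tnnc2, each on the opposite strand, and the sources used here do not give the counting as stranded.

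Pttg1, the securin that holds separase inactive until anaphase, ran opposite to the rest. It was at 26.6, 76.7, 52.4 and 19.3 FPKM in the controls and at 19.5, 73.4 and 60.9 FPKM in Med23 CKO. Its highest values were therefore in WT_116 and KO_214, where the other 38 genes were lowest, and its lowest in WT_220 and KO_117, where they were high. KO_117 was at 0.266 times the level of KO_214. Of the 21 pairs of libraries, 18 had the opposite order to the mean of the other members and 3 the same. Its log2 fold change was 0.22 (SE 0.60), and the groups overlapped. Its RefSeq promoter held neither TTTGAA nor CCAAT, and 195 of the 250 bases before that start are exon in the GENCODE M21 annotation. No near-identical transcript of another gene was found for it.

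The chromosomal passenger complex corrects attachments at the centromere and then moves to the midzone. Aurkb, its kinase, was at 41.6, 8.5, 16.5 and 57.6 FPKM in the controls and at 66.0, 2.72 and 13.4 FPKM in Med23 CKO. The log2 fold change of Aurkb was -0.73 (SE 1.02). Birc5, which recruits the complex to chromosomes, ran from 6.40 to 88.6 FPKM, Incenp, its scaffold, from 8.01 to 62.8 FPKM, and Cdca8, which completes it, from 5.56 to 97.4 FPKM. The 4 genes had the lowest median log2 fold change of the roles with several members, -0.63, and none passed the test. Cdca8 exons overlap a gene on the opposite strand.

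Centromere and outer kinetochore genes had a median log2 fold change of -0.44 over 7 genes. Cenpa, the histone that marks centromeres, was at 6.09 FPKM in KO_214 and 19.0-fold higher in KO_117. The kinetochore motor Cenpe ran from 1.77 to 18.9 FPKM and Cenpf, a large kinetochore protein, from 1.73 to 23.2 FPKM. The NDC80 complex, which grips microtubules, has 4 subunits that are all members. Ndc80, Nuf2 and Spc24 differed 7.89-fold, 9.74-fold and 15.3-fold between KO_117 and KO_214, but Spc25 only 3.72-fold. Spc25 was at 41.2, 21.9, 34.1 and 36.7 FPKM in the controls and at 54.8, 14.7 and 45.9 FPKM in Med23 CKO. It was the one of the 38 genes with KO_218 above every control, and had the smallest SD within groups, 0.694 on the log2 scale. Its promoter held both motifs.

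Spindle motors and microtubule proteins followed the common order. Kif11, the motor that pushes spindle poles apart, was at 51.9, 12.1, 24.2 and 47.0 FPKM in the controls and at 62.1, 3.45 and 33.1 FPKM in Med23 CKO. Kif2c, which depolymerises microtubule ends, had the widest span, from 1.44 FPKM in KO_214 to 36.0 FPKM in KO_117. Tpx2, which activates Aurora A on the spindle, ran from 5.56 to 67.8 FPKM. Nusap1, a microtubule bundling protein, ran from 2.75 to 45.2 FPKM, and Hmmr, a spindle pole protein, from 2.66 to 28.2 FPKM. Nusap1 shares 172 exonic bases with Oip5 on the opposite strand. The 5 genes had log2 fold changes from -0.51 to -0.39.

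All 5 genes of the midzone and of cytokinesis differed between KO_117 and KO_214 by less than the median of 14.1-fold. Anln, the actin-binding scaffold of the contractile ring, was at 16.3, 7.76, 11.6 and 16.7 FPKM in the controls and at 25.2, 6.04 and 12.4 FPKM in Med23 CKO. The difference was close to 0 for Anln, with an SE of 0.46 on the log2 scale. Ect2, the exchange factor that activates RhoA at the midzone, ran from 3.62 to 37.0 FPKM. Prc1, which crosslinks midzone microtubules, ran from 6.83 to 78.5 FPKM, while the midzone motors Kif20a and Kif23 ran from 2.64 to 31.8 and from 3.11 to 22.1 FPKM. Kif20a shares exonic bases with Cdc23 and Prc1 with Rccd1, on opposite strands.

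Foxm1, the transcription factor that activates many of these genes, moved with them. It was at 38.2, 5.94, 12.3 and 42.7 FPKM in the controls and at 51.4, 3.13 and 8.71 FPKM in Med23 CKO. KO_218 was thus between the lower controls. Its log2 fold change was -0.64 (SE 0.97), and the groups overlapped. Mybl2, which encodes B-MYB, was at 14.5, 2.97, 4.85 and 17.3 FPKM in the controls and at 23.2, 1.25 and 3.48 FPKM in Med23 CKO.

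No mitosis or spindle gene passed the test between Med23 CKO and control. All 39 passed the filter on low values (mean FPKM of at least 0.5), and limma called 0 of them in either direction with adjusted p-values held to 0.05, as it called 0 of all genes tested (0% higher, 0% lower). At an unadjusted p under 0.05, 0 were higher and 0 lower, against 0.502% and 0.996% of genes tested. The smallest unadjusted p of the 39 genes was 0.391 (Cdc20, limma), every adjusted p was 1 after rounding, and an exact permutation test of single genes over all 35 assignments of the libraries gave p between 0.514 and 1, where 0.0286 is the smallest possible. Group values overlapped for all 39 genes. The estimates were negative for 37 genes and positive for Spc25 and Pttg1, with a median log2 fold change of -0.44 against -0.03 over all genes tested. That split was less uneven off the log scale: mean FPKM was higher in Med23 CKO for 14 of the 39 genes, among them Mki67, Top2a, Ccnb1 and Bub1, and lower for 25. SEs ran from 0.45 (Spc25) to 1.02 (Plk1), and the 95% confidence intervals reached from between -3.10 and -1.02 at the lower end to between 1.06 and 1.84 at the upper end. The intervals therefore leave room for sizeable changes in either direction.

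The sign of the median rested on KO_214. Without KO_214 the median log2 fold change was 0.51, with 38 of 39 estimates above 0 and Pttg1 at -0.13. Without KO_117 it was -1.23. Leaving out 1 control gave medians from -0.82 (without WT_116) to -0.17 (without WT_220), with -0.20 without WT_215 and -0.53 without WT_213. Without KO_218 the median was -0.54. No member passed the test at an unadjusted p under 0.05 in any of these fits, and the smallest p was 0.0522, without KO_117.

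**Figure D2:**
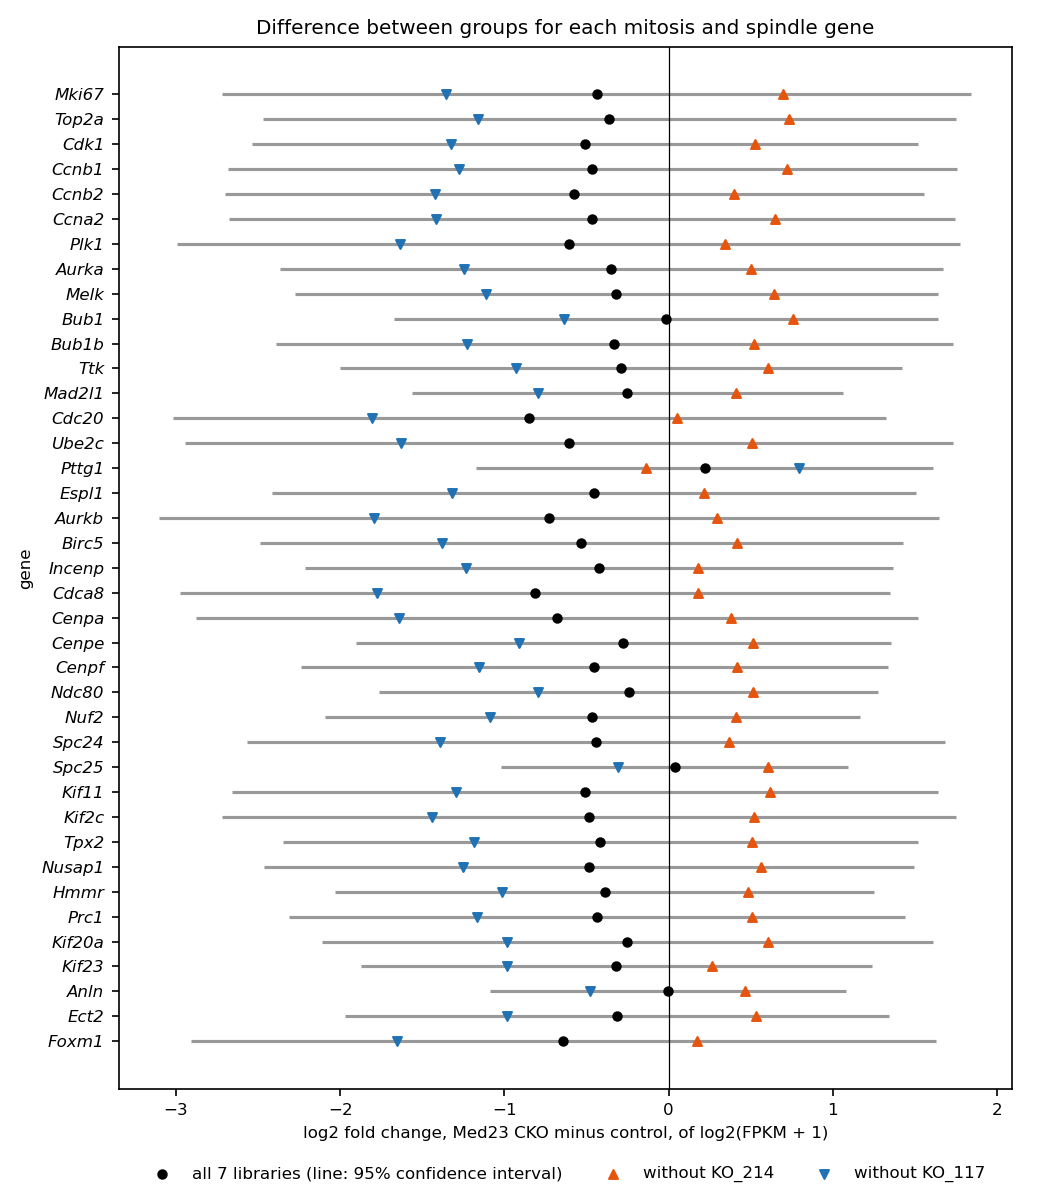
Log2 fold change of log2(FPKM + 1), Med23 CKO minus control (horizontal), for each of the 39 genes (vertical). Black points with 95% confidence intervals are from all 7 libraries and all intervals include 0, upward triangles without KO_214 lie above 0 for 38 genes, and downward triangles without KO_117 lie below 0 for all but Pttg1.

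Other cell cycle genes showed the same order of libraries. For 78 further mitotic genes, such as kinesins, condensins and kinetochore proteins outside the 39, and for 45 genes of DNA replication and licensing, the mean log2(FPKM + 1) ordered all 21 pairs of libraries as the members did. Of the 78, 61 were highest in KO_117 and lowest in KO_214, and 43 of the 45 were. In both lists 0 genes passed the unadjusted p, with 6 estimates positive and 72 negative (median log2 fold change -0.25) and with 2 positive and 43 negative (median -0.22). The largest estimates were Cenpm at -0.72 and Kif22, a chromosome arm motor, at -0.68 among the mitotic genes, and Rrm2, a subunit of ribonucleotide reductase, at -0.60 and the helicase subunit Mcm2 at -0.54 among the replication genes. The span was wider for the mitosis and spindle genes. Their summed FPKM was 9.84-fold higher in KO_117 than in KO_214 (13.6-fold without Pttg1), against 4.55-fold for the other mitotic and 4.77-fold for the replication genes.

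Relative to the replication genes, the members were lowest in KO_214. The mean log2(FPKM + 1) of the 38 genes other than Pttg1 minus that of the replication genes was 0.54, -0.05, 0.35 and 0.51 in the controls and 0.57, -0.51 and 0.41 in Med23 CKO. The groups overlapped on this scale, and no member was separated between groups relative to the mean of the 38 genes other than Pttg1.

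The 19 regulators of mitotic transcription, including MuvB subunits, E2F and NF-Y genes, had a mean log2(FPKM + 1) that ran from 3.31 in KO_214 to 4.31 in KO_117 and ordered 19 of 21 pairs of libraries as the members did. Their summed FPKM, which the most abundant of them set, ran the other way and was 0.785 times as high in KO_117 as in KO_214. Of the 19, 0 passed the unadjusted p and the median log2 fold change was -0.07. Mybl2, at -0.53, and E2f8, a repressor of the E2F family, at -0.46, had the largest estimates. E2f8 ran from 0.765 FPKM in KO_214 to 13.6 FPKM in KO_117, and Mybl2 had its extremes in the same libraries. Over 9 genes of cell cycle exit and quiescence 0 passed, with a median of -0.26. Cdkn1c, an inhibitor of cyclin-dependent kinases, was at 3.78, 3.33, 2.86 and 5.11 FPKM in the controls and at 23.9, 13.6 and 2.17 FPKM in Med23 CKO. KO_117 and KO_214, the extremes of the mitotic genes, were both above the controls, and KO_218 was below them (log2 fold change 1.16, SE 0.64, adjusted p = 1 in limma). Cdkn2a, another such inhibitor, had a log2 fold change of -0.88 (SE 0.78).

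Marker genes of other cell types moved against the mitotic genes from library to library. The 10 microglia and macrophage markers summed to 30.1 to 193 FPKM in the controls and to 32.3, 897 and 147 FPKM in KO_117, KO_214 and KO_218. All 10 were above 0 in every library, and their mean ordered 19 of 21 pairs of libraries opposite to the members. Csf1r, the receptor that defines these cells, was at 1.58, 2.45, 4.96 and 0.873 FPKM in the controls and at 0.787, 21.2 and 3.78 FPKM in Med23 CKO, so KO_214 stood above all others. The 6 endothelial markers summed to 6.30 to 47.5 FPKM in the controls and to 4.62, 83.9 and 26.9 FPKM in Med23 CKO, with 19 of 21 pairs opposite. The 6 mural and fibroblast markers summed to 7.78 to 78.2 FPKM in the controls and to 5.53, 258 and 48.1 FPKM, with 18 of 21 pairs opposite. None of these markers was at 0 in any library. Astrocyte (19 of 21), ependymal (20 of 21), oligodendrocyte (17 of 21) and neuronal (16 of 21) means were also mostly in the opposite order, although the neuronal mean was nearly equal in KO_117 (2.19) and KO_214 (2.20). Not every marker followed its list. Olig1, an oligodendrocyte lineage factor, was at 1361, 437, 603 and 1943 FPKM in the controls and at 1586, 214.5 and 334 FPKM in Med23 CKO, so it was lowest in KO_214 as the mitotic genes were. Olig2, its paralog, and the neuroblast marker Dcx were also lowest in KO_214, at 84.0 and 0.336 FPKM. Sox10 and Mbp of the same oligodendrocyte list were lowest in KO_117. The mean of the 9 neural stem cell markers ordered 19 of 21 pairs as the members did. In none of the 8 lists did a tested gene pass the unadjusted p between groups. The part of these other cells in the level of the mitotic genes was not tested.

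**Figure D3:**
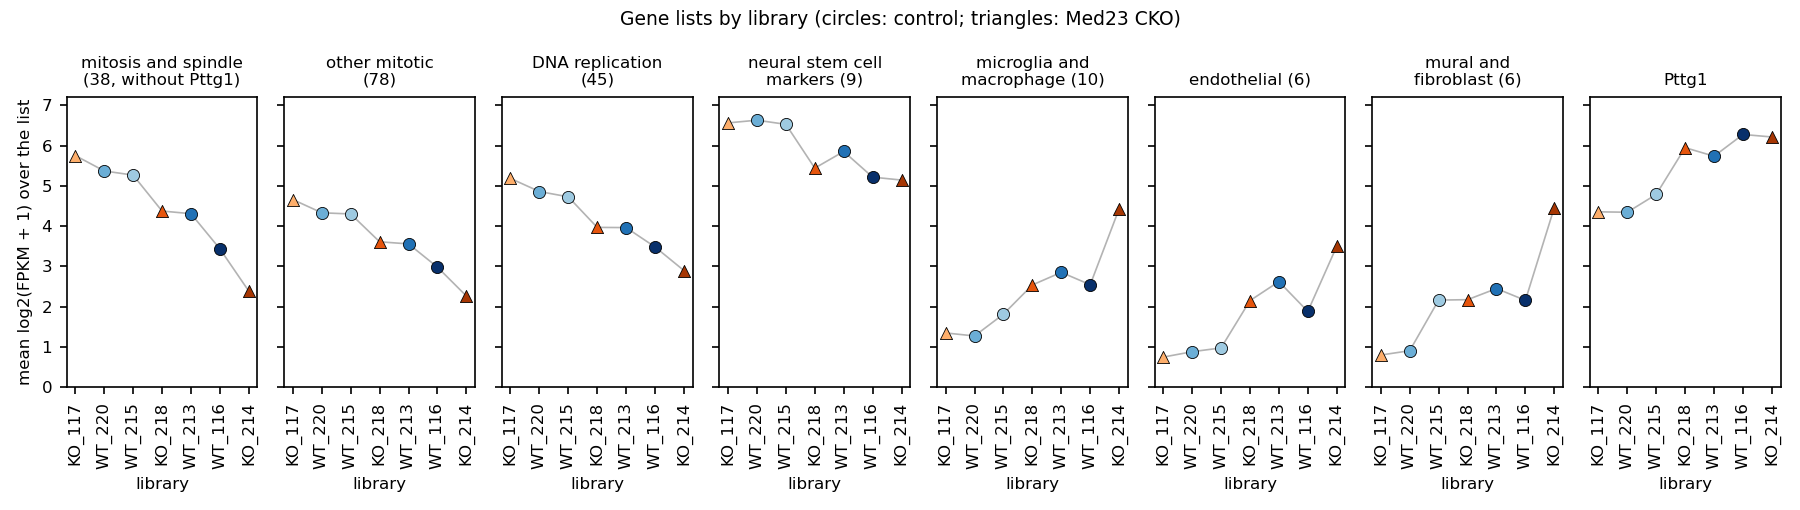
Mean log2(FPKM + 1) of gene lists (vertical) in the 7 libraries (horizontal, ordered by the mitosis and spindle genes), with circles for control and triangles for Med23 CKO, and Pttg1 alone in the last panel. The mitotic and replication lists step down from KO_117 to KO_214, while microglia, endothelial and mural lists and Pttg1 are higher on the right.

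WT_213 and KO_218 had similar mean levels of the members (4.35 and 4.42 on the log2 scale), and the difference between these libraries, a pair chosen after the values were seen, varied with base composition. Across the 38 genes other than Pttg1, the difference KO_218 minus WT_213 in log2(FPKM + 1) was more negative at a higher GC content of the transcript, with Pearson r = -0.77 and Spearman rho = -0.72, as a description across genes that share 1 pair of libraries. The same r over 13638 genes tested with a known transcript was -0.33. Of the 11 members with a GC content of at least 50%, 9 were lower in KO_218 (median -0.27), among them Cdc20, Foxm1, Incenp and Espl1. All 15 members below 45% were higher in KO_218 (median 0.30), among them Ccnb1, Ttk, Bub1 and Top2a. After the trend with GC content and length over all genes was removed from each library, r was -0.58 over the 38 genes. The part of base composition in the differences among members was not tested further.

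**Figure D4:**
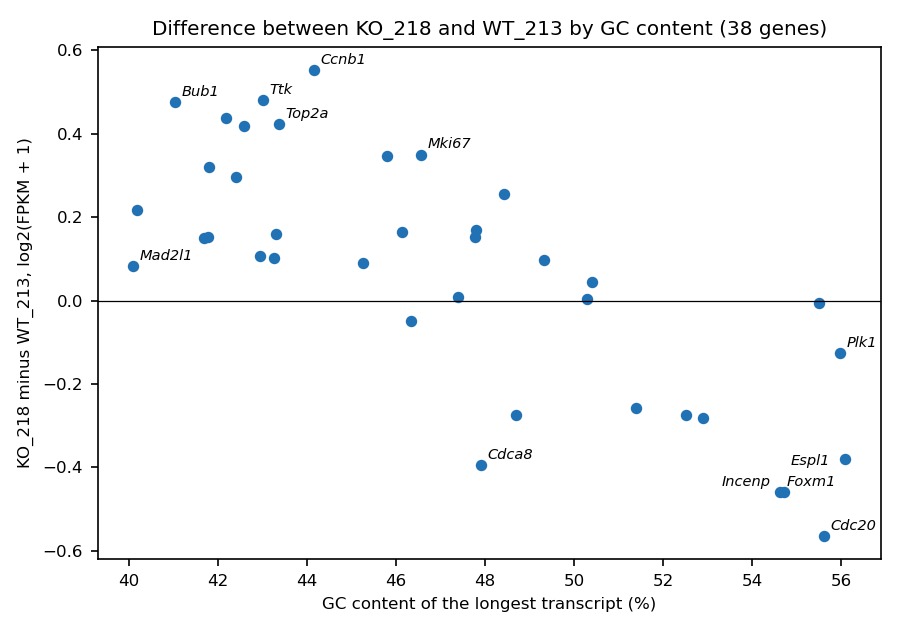
Difference between KO_218 and WT_213 in log2(FPKM + 1) (vertical) against the GC content of the longest transcript in percent (horizontal), 1 point for each of the 38 genes other than Pttg1. Genes at 45% or less lie above 0 and most genes at 50% or more lie below it.

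Genes with and without the CHR core spanned overlapping ranges between the extreme libraries. KO_117 was 3.72-fold to 24.9-fold above KO_214 for the 23 genes with TTTGAA (median 14.3-fold). It was 5.83-fold to 18.4-fold above for the 8 matched genes without it other than Pttg1 (median 12.2-fold). The 6 genes whose promoter stretches are printed above lay between 10.2-fold (Ect2) and 21.2-fold (Mki67).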

How the data were processed

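RNA of primary neurospheres was sequenced as 1 library a mouse (NEBNext Ultra kit, Illumina HiSeq). The authors removed adapters, aligned reads with TopHat (mm10, default parameters) and calculated FPKM per gene with Cuffdiff, which they deposited for each library. Group means and the columns of the authors' own comparison (log2 fold change, test score, p and q) were not used. Columns of samples outside the series numbered 0. The depth of each library is unknown.

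Groups follow the sample titles. The 14151 of 24346 genes whose FPKM averaged 0.5 or more were fitted as log2(FPKM + 1) with limma 3.58.1 (lmFit, eBayes with trend, two-sided) in R 4.3.3, with Benjamini-Hochberg adjustment over all genes tested. Fold changes are on that scale, which understates those of low genes. Single genes were also tested by exact permutation (Python 3.11.15, numpy 2.4.6). Spearman rho was calculated with scipy 1.17.1. In data simulated for this comparison over 14151 genes, 142 of 200 genes changed by 2 on the log2 scale were recovered. Of unchanged genes, 5.03% had an unadjusted p under 0.05. Noise was drawn independently for each gene with its own SD within groups, so the library order that genes share here was not simulated. The 200 were drawn from all genes tested (median SD 0.378), so recovery was not measured for the members (median SD 1.33). Replicates are separate mice.

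The members and lists were chosen with earlier results of these data known. Genes named are all members, Med23, from every other list any gene with an unadjusted p under 0.05 and the pair with the largest fold change, and the defining markers of each cell type. Near-identical transcripts were found with BLAST 2.17.0, and overlaps and GC content were taken from GENCODE M21 (GRCm38). Alternatives were pseudocount 0.1, a minimum mean FPKM of 1 or no filter, median centring, quantile normalization, no trend, array weights, a covariate from the first digit of mouse numbers, and each library left out. Removal of the GC and length trend was chosen after seeing the data.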

Additional observations from a re-analysis of the deposited data

How the results depend on the processing

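Leaving out 1 library at a time, the log2 fold change of Med23 CKO against control ranged as follows: Mki67 -1.35 to 0.70, Top2a -1.16 to 0.73, Cdk1 -1.32 to 0.53, Ccnb1 -1.28 to 0.72, Ccnb2 -1.42 to 0.40, Ccna2 -1.42 to 0.65, Aurka -1.24 to 0.50, Aurkb -1.79 to 0.29, Plk1 -1.64 to 0.34, Bub1 -0.64 to 0.76, Bub1b -1.23 to 0.52, Ttk -0.93 to 0.60, Mad2l1 -0.79 to 0.41, Cdc20 -1.80 to 0.049, Birc5 -1.38 to 0.42, Incenp -1.23 to 0.18, Cdca8 -1.77 to 0.18, Kif11 -1.30 to 0.62, Kif20a -0.98 to 0.60, Kif23 -0.98 to 0.26, Kif2c -1.44 to 0.52, Cenpa -1.64 to 0.38, Cenpe -0.91 to 0.51, Cenpf -1.16 to 0.42, Ndc80 -0.79 to 0.51, Nuf2 -1.09 to 0.41, Spc24 -1.39 to 0.37, Spc25 -0.31 to 0.60, Tpx2 -1.19 to 0.51, Nusap1 -1.25 to 0.56, Prc1 -1.16 to 0.51, Anln -0.48 to 0.47, Ect2 -0.98 to 0.54, Foxm1 -1.66 to 0.18, Ube2c -1.63 to 0.51, Pttg1 -0.13 to 0.80, Espl1 -1.32 to 0.22, Hmmr -1.01 to 0.48, Melk -1.11 to 0.64. The median over the 39 genes ran from -1.23 to 0.51, that of the other mitotic genes from -0.80 to 0.34 and that of the replication genes from -0.80 to 0.29. KO_214 decided the sign: without it 38 genes changed sign, and without any other single library at most 5 did. Bub1 was at 0.010 with median centring and 0.12 with array weights, Anln at 0.024 with median centring and Spc25 at -0.021 with the GC and length trend removed. The other members kept their sign in every fit that used all libraries. No member passed an unadjusted p under 0.05 in any fit.

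Over all genes, leaving out a library gave 0 to 1 genes higher at an adjusted p, and 44 to 362 higher and 71 to 410 lower at an unadjusted p. That count higher was 140 without a filter and 193 with array weights, which gave 887 lower. Those weights were 3.01 for KO_218 against 0.301 for KO_117 and 0.441 for KO_214, so KO_218 weighed most in the Med23 CKO group. Among the other mitotic genes, 3 were lower with array weights, and 0 to 1 were higher and 0 to 3 lower with a library left out, against 0 to 1 lower among the replication genes. TTTGAA was in 8 promoters within 100 bases before the start. The study's controls were littermates, but the labels do not give the litter of a mouse, so no paired analysis was possible. The precision is limited by 7 libraries of unknown depth.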
